A study of Mus musculus with 6 samples.

Results

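The genes of the mitochondrial ribosome were followed in the heads of mouse embryos that lack or carry Taspase1, the protease encoded by Tasp1, which cleaves nuclear proteins such as the histone methyltransferases of the MLL family. Members were all genes whose probe sets carry a lone gene symbol of the form Mrpl or Mrps followed by a digit, and each gene was read from its probe set with the highest mean. This gave 77 genes from 85 probe sets, 48 named for the large subunit and 29 for the small subunit, out of 19938 genes with such a probe set. They cover all but Mrpl53 of the 78 protein-coding genes with such symbols in the mouse gene table of assembly GRCm38.p6. All 77 passed the filter on dim signals, so the counts given here are over every member.

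There were 3 heads of wild type (WT) embryos and 3 of Tasp1-/- knockout (KO) embryos, all E10.5, from crosses of Tasp1+/- parents on a C57Bl6 background, and the labels call the heads of a group biological replicates. RNA came from the dissected forebrain and midbrain region (prosencephalon and mesencephalon), was labelled from 100 ng of total RNA, and was read on 1 Affymetrix array per head. The labels name no Cre or tissue for the knockout, and they do not say which part of Tasp1 is deleted. All values are log2 signals as deposited. A negative difference means a lower mean in the KO-labelled group.

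Tasp1 itself read higher under the KO label (8.59 ± 0.08) than under the WT label (8.34 ± 0.21, SD, n = 3 each; limma adjusted p = 0.67), and where its probe set lies relative to the deletion is not known here, so it does not check the labels. Array medians ran from 7.35 to 7.45. WT 2 alone had a high Xist signal (12.3 against 4.90 to 5.24), so sex was not balanced between the groups. Of the markers of the dissected tissue, all 5 neural progenitor genes, the 4 forebrain genes that could be read and all 5 midbrain genes were above the filter, whereas 3 of 5 hindbrain genes (Hoxa2, Egr2 and Hoxb2) were below it. Marker genes of cranial mesenchyme, endothelium, red cells, surface ectoderm and macrophages were present too. Of the 41 marker genes above the filter, 6 had every KO-labelled head below every WT-labelled one (Lhx2, Emx2, Sox10, Hbb-bh1, C1qb and Epcam) and 1 was separated upward (Cdh1). Over all genes tested, 12.3% did not overlap between the groups, 7.81% lower and 4.52% higher in KO-labelled heads. The forebrain genes Lhx2 and Emx2 read 11.20 to 11.34 and 9.36 to 9.74 in WT-labelled heads, and 10.85 to 11.09 and 9.21 to 9.31 in KO-labelled heads. Taken as the log2 of summed linear signals, the lists overlapped between the groups, except the 4 macrophage genes (9.665 to 9.74 in WT-labelled and 9.56 to 9.664 in KO-labelled heads). Of these, C1qb did not overlap (8.33 to 8.48 and 8.05 to 8.24), Csf1r did, Cx3cr1 read 7.84 to 7.88 in WT-labelled and 7.86 to 8.05 in KO-labelled heads, and Adgre1 was below the filter. The part of these cells in the results was not tested. In such bulk tissue, fewer cells of a type and less RNA per cell cannot be told apart.

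Mitochondria keep a small genome of their own, which encodes core subunits of the respiratory chain, and they translate it on a dedicated ribosome. Its RNAs come from that genome, but all of its proteins are encoded in the nucleus, made in the cytosol and imported. The small subunit decodes the messenger RNA, and the large subunit joins amino acids and carries the exit tunnel, the stalk that recruits translation factors, and a crown called the central protuberance. Many of these proteins descend from bacterial ribosomal proteins, while others occur only in mitochondria.

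Mrpl48 was the member with the widest difference, at 0.746 times the WT-labelled signal, and the other 76 members lay between −0.20 and +0.15 in log2 units. Of the 77 members, 0 passed an adjusted p of 0.05 in limma, as did 0% of the 11802 genes tested. At an unadjusted p under 0.05, 3 members were lower (Mrpl48, Mrpl11 and Mrpl13) and 1 was higher (Mrps18b). That is 5.19% of the members, against 7.13% of all genes tested, so the share was not above the background. By direction, 3.90% of the members were lower, against 4.65% of all genes tested, and 1.30% were higher, against 2.47%. With the arrays centred on their medians, 3 members were lower and 0 higher at that p. The share over all genes was not computed for the centred arrays.

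**Figure D1:**
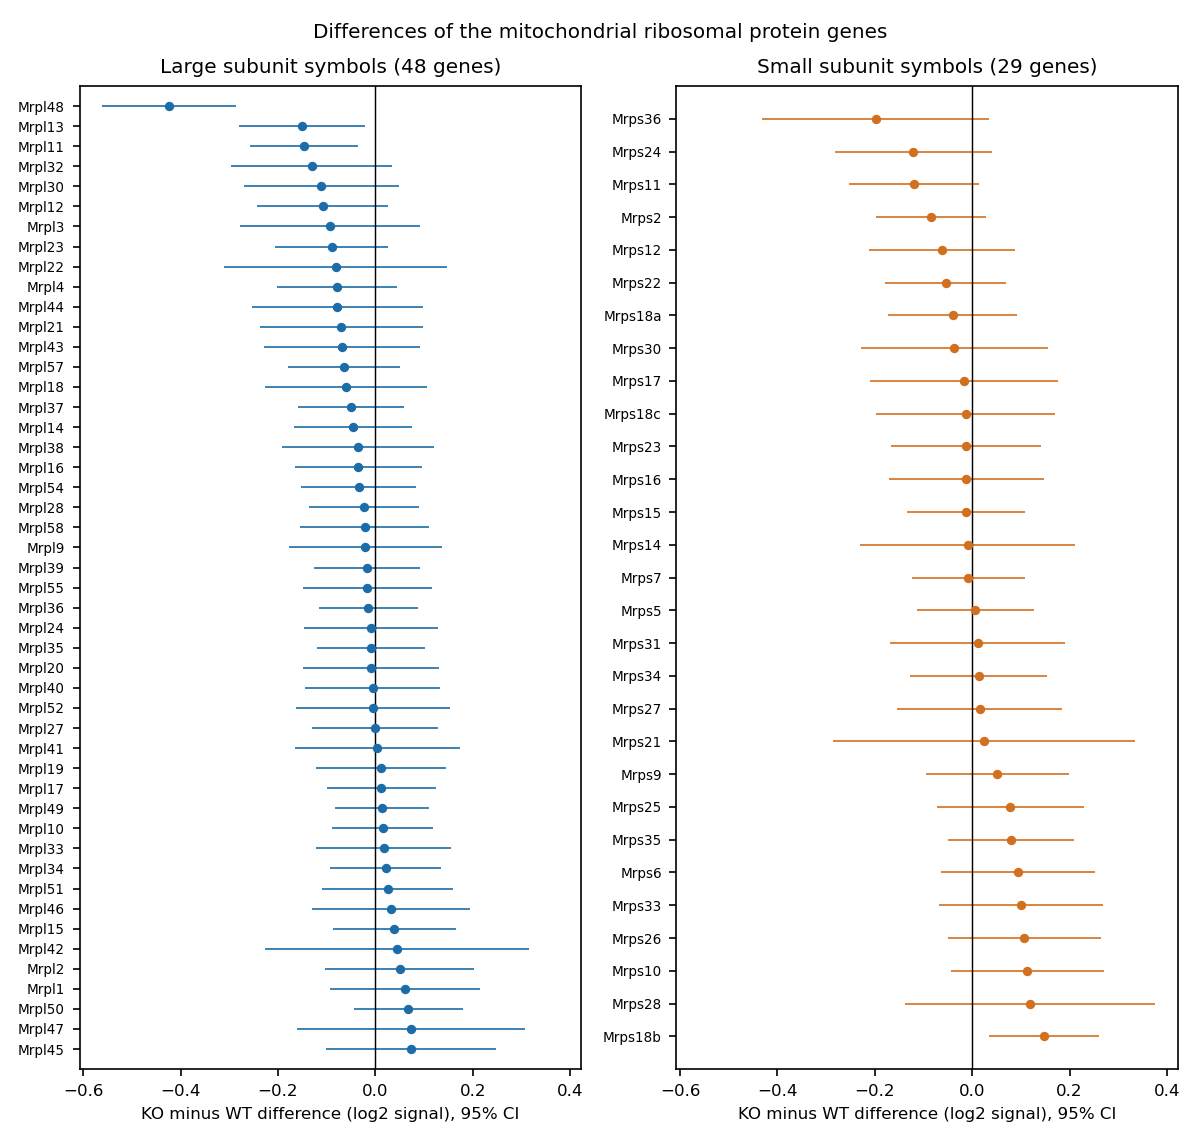
Difference between KO-labelled and WT-labelled heads for each gene (x axis, log2 signal; bars, 95% confidence interval of the limma fit), with large subunit symbols on the left and small subunit symbols on the right. Mrpl48 at −0.42 stands apart at the top of the large subunit panel, and the intervals of 73 of the 77 genes include zero.

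Mrpl48 encodes a protein of the central protuberance that has no counterpart in the bacterial large subunit. Its log2 signal was 9.43, 9.35 and 9.45 in the WT-labelled heads and 8.89, 9.05 and 9.03 in the KO-labelled heads. All 3 KO-labelled heads lay below all 3 WT-labelled heads, with a gap wider than the spread within either group. Group means were 9.41 ± 0.05 and 8.99 ± 0.08 (SD over 3 heads), which differ by −0.42 (95% confidence interval −0.56 to −0.29). Ranked by p it stood at place 5 of 11802 genes, but it did not pass adjustment over them (limma, adjusted p = 0.107). An exact permutation test over the heads gave a two-sided p of 0.1, the smallest that 3 against 3 can give. Its adjusted p lay between 0.073 and 0.47 over the alternatives, and it had the smallest p among the members in each alternative that kept its probe set.

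**Figure D2:**
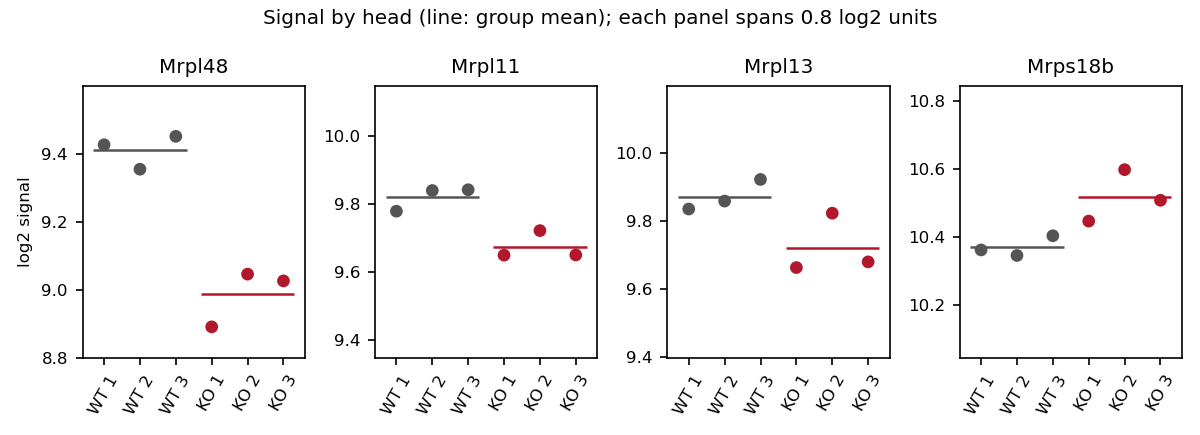
Log2 signal (y axis) of Mrpl48, Mrpl11, Mrpl13 and Mrps18b in each of the 6 heads (x axis; grey, WT-labelled; red, KO-labelled; lines, group means), with every panel spanning 0.8 log2 units. The groups do not overlap in any of the 4 panels, and the gap is widest for Mrpl48.

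Which locus the Mrpl48 signal reads is not settled by these files. The annotation gives Mrpl48 1 probe set (10514298), and the gene lies on chromosome 7. Probe set numbers on this array mostly follow the genome: for all but 7 of the 85 member probe sets, the commonest chromosome among the 10 located probe sets nearest in number is the member's own. For the Mrpl48 probe set, all 10 belong to chromosome 4, and the nearest on either side are annotated to the interferon genes Ifna9 and Ifna12. In the gene table of GRCm38.p6 the pseudogene Mrpl48-ps lies between those 2 genes. The Ifna9 and Ifna12 probe sets had mean log2 signals below the filter of 7.06. Whether the signal comes from Mrpl48, from the pseudogene or from both cannot be told apart here.

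The genes near Mrpl48 on chromosome 7 that could be tested gave small differences. Coa4, which encodes a factor for assembly of cytochrome c oxidase, had a mean of 7.73 ± 0.06 under the WT label and 7.64 ± 0.03 under the KO label (SD over 3 heads), which differ by −0.09 (limma adjusted p = 0.81). Rab6a, a GTPase gene of Golgi transport, differed by −0.02 (limma adjusted p = 0.95). Of the 3 gene table neighbours on each side, these were the only ones tested. Plekhb1 was below the filter. Gm39058 and the nearest genes on either side, Gm39059 and Cox20b, had no probe set with a lone symbol and were not read.

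The remaining members at an unadjusted p under 0.05 had differences of about 0.15. Mrpl11, the counterpart of the bacterial protein at the base of the stalk, read 9.78, 9.84 and 9.84 in WT-labelled and 9.65, 9.72 and 9.65 in KO-labelled heads. Mrpl13 read 9.84, 9.86 and 9.92 against 9.66, 9.82 and 9.68. In both genes every KO-labelled head was lower, though KO 2 came within 0.1 of the lowest WT-labelled head. The differences were −0.15 (SE 0.05) for Mrpl11 and −0.15 (SE 0.06) for Mrpl13, with limma adjusted p-values of 0.61 and 0.67. Mrps18b, 1 of 3 mitochondrial relatives of bacterial S18, ran the other way, with 10.36, 10.35 and 10.40 in WT-labelled and 10.45, 10.60 and 10.51 in KO-labelled heads. All KO-labelled heads were higher, by +0.15 on average (SE 0.05, limma adjusted p = 0.62). Without KO 1, Mrpl48 was the only lower member at an unadjusted p under 0.05, and without WT 1 the higher members were Mrps33, Mrps18b and Mrps6. The share of all genes past that p was not computed with these heads left out.

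Stretches upstream of the start sites of Mrpl48, Mrpl11 and Mrps18b, but not of Mrpl13, are shown to set the sequence beside the values. They are from RefSeq, build GRCm38.p6, and were found for 68 of the 77 members, in 74 windows of 300 bases from 250 before to 50 after a start. On both strands, 4 motifs were searched: TGCGCA, the core of the NRF1 motif (the same on both strands), CCGGAAG of the ETS family that includes GABP, AAGATGG, the core of the YY1 motif, and GCCAAT, the core of the NF-Y motif. None of the 4 contains another. The 250 bases before the start are printed 5′ to 3′ on the gene's strand, with these motifs in capitals, for the last of 4 Mrpl48 windows (chr7:100583131-100583380, minus strand), Mrpl11 (chr19:4962056-4962305, plus strand) and Mrps18b (chr17:35916441-35916690, minus strand).
Mrpl48: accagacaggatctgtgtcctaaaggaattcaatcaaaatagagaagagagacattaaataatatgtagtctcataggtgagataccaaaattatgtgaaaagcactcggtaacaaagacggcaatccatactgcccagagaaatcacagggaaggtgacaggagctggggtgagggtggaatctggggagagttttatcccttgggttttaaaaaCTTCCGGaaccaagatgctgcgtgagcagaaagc
Mrpl11: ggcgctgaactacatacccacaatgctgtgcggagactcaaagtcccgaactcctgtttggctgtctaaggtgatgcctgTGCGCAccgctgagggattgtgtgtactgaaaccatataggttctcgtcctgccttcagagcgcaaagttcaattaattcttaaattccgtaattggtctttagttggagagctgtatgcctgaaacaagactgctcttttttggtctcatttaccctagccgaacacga
Mrps18b: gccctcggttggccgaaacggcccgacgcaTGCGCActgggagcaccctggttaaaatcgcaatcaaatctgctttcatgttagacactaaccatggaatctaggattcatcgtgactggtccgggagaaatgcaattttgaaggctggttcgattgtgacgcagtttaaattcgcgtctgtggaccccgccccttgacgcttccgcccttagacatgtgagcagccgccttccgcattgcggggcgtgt

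The Mrpl48 window held an ETS motif in reverse at −34, counted from the start, and the other 3 Mrpl48 windows held none of the motifs. Counted from the start, the NRF1 core stood at −170 in Mrpl11 and at −220 in Mrps18b, which had another NRF1 core and an ETS motif within the 50 bases after the start. Over the member windows, 33.8% held the ETS motif, against 8.86% of all 32851 windows of that length. The NRF1 core was in 29.7% against 7.76%, and the YY1 core in 17.6% against 6.34%. The NF-Y core was in 12.2% of member windows and 14.7% of all windows. The members are protein-coding, and in the 21262 windows of protein-coding genes the shares were 11.6% (ETS), 9.74% (NRF1), 6.24% (YY1) and 16.9% (NF-Y). These are matches of letters, not measured binding, and no test of these shares was made.

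In the large subunit most genes differed little. Of the 48, 32 were lower and 16 higher, with a median difference of −0.017 against −0.0092 over all genes tested, where 55.4% were lower. The stalk genes differed among themselves: Mrpl12, the stalk protein that contacts translation factors, differed by −0.11 (SE 0.06), while Mrpl10, which anchors it, differed by +0.02 (SE 0.05). Mrpl12 read 9.75, 9.75 and 9.65 in WT-labelled and 9.51, 9.68 and 9.63 in KO-labelled heads, so the groups overlapped.

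The other genes of the central protuberance, where the Mrpl48 protein sits, did not share its difference in size. Mrpl18, which like its bacterial counterpart belongs to this crown, differed by −0.06, Mrpl38 by −0.04, Mrpl40 by −0.0058 and Mrpl46 by +0.03. Mrpl58, a peptidyl-tRNA hydrolase built into the ribosome, differed by −0.02. The limma adjusted p-values of these 5 were 0.90 or more, and their groups overlapped.

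Among the remaining lower large subunit genes, Mrpl32, whose cleavage after import is needed for ribosome assembly, read 8.69, 8.51 and 8.52 in WT-labelled and 8.35, 8.53 and 8.45 in KO-labelled heads. Its difference was −0.13 (SE 0.07), and KO 2 lay above 2 of the WT-labelled heads. Mrpl23, a protein of the exit tunnel rim, differed by −0.09 (SE 0.05). Mrpl4 also had groups that did not overlap, at −0.08, although its KO-labelled heads spanned only 10.12 to 10.14 and WT 1 at 10.31 widened the difference. On the higher side, Mrpl50 (+0.07) had groups that did not overlap, with WT 1 at 9.93 just under KO 1 at 9.94, and those of Mrpl45 (+0.07) overlapped. In all, 7 members had groups that did not overlap, or 9.09% of the members against 12.3% of all genes. Of these, 5 were lower (background 7.81%) and 2 higher (background 4.52%).

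The 29 genes of the small subunit were split evenly, 15 lower and 14 higher, with a median of −0.0080. On the lower side stood Mrps11, a protein of the platform near the decoding centre, at 8.83, 8.69 and 8.78 in WT-labelled and 8.64, 8.64 and 8.66 in KO-labelled heads. These groups did not overlap, and the difference was −0.12 (SE 0.06, limma adjusted p = 0.74). Mrps24, the counterpart of bacterial S3, differed by −0.12 (SE 0.07) and Mrps2 by −0.08 (SE 0.05). Mrps36 had the largest small subunit difference, −0.20 (SE 0.10), but rested on WT 1, which read 8.56 where the other heads read 8.01 to 8.24. Without WT 1 it was −0.078. Its product is now counted as a subunit of the 2-oxoglutarate dehydrogenase complex.

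Higher small subunit genes after Mrps18b were Mrps28 (+0.12, SE 0.12), the counterpart of bacterial S1, Mrps10 (+0.11, SE 0.07) and Mrps26 (+0.11, SE 0.07). Mrps33 (+0.10), Mrps6 (+0.09), Mrps35 (+0.08) and Mrps25 (+0.08) followed, and the groups of all 7 overlapped. Mrps28 turned on KO 2, which read 9.10 where the other KO-labelled heads read 8.72 and 8.74. Without KO 2 its difference was −0.0032. Mrps21 varied most among heads, from 10.65 to 11.03 in WT-labelled and 10.71 to 11.26 in KO-labelled heads, and its difference of +0.02 had an interval from −0.29 to 0.34.

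Subunit names and positions in the ribosome do not match throughout, since the products of Mrps30 and Mrps18a sit in the large subunit. With those moved, Mrps36 left out, and Dap3, Ptcd3, Chchd1 and Gadd45gip1 (ribosomal proteins with other symbols) added, the medians were −0.020 for 51 large subunit genes and +0.011 for 29 small subunit genes. By name, the large minus small gap between the median differences was −0.0089. A related quantity, the large minus small median deviation within each head, had an SD of 0.036 between heads of a group. That SD describes single heads and is not the error of a difference between groups. By position the gap was −0.031. Taken head by head, the large minus small median ran from −0.044 to 0.038 in WT-labelled and from −0.043 to 0.011 in KO-labelled heads. The ranges overlapped, and the gap by name was smaller than the spread between heads. The spread was not computed for the assignment by position.

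The genes were also split by ancestry. Large subunit genes with a bacterial counterpart had 21 of 30 lower (median −0.018), and those found only in mitochondria 11 of 18 (median −0.012). In the small subunit 10 of 16 listed with a bacterial counterpart were lower (median −0.011), and 5 of the other 13 (median +0.014). Those 13 are not all of mitochondrial origin only, since they include Mrps18a and Mrps18b, relatives of bacterial S18. They also hold Mrps30 and Mrps36.

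**Figure D3:**
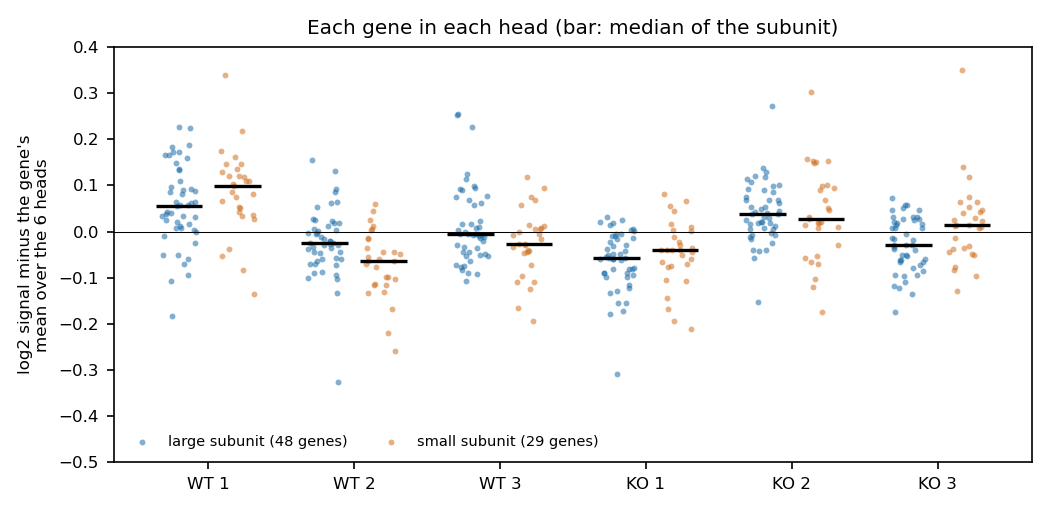
Log2 signal of each member minus that gene's mean over the 6 heads (y axis), by head (x axis) and subunit (blue, 48 large subunit genes; orange, 29 small subunit genes; black bars, medians). WT 1 lies highest in both subunits (medians 0.056 and 0.0998), while KO 2 lies above 2 of the WT-labelled heads.

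Single heads stood out across the members. WT 1 had the highest signal of the 6 heads for 36 of the 77 members (46.8%), against 29.6% of all genes, and KO 1 the lowest for 26 (33.8%), against 13.0%. KO 2 was highest for 21 members, although it carries the KO label. Median deviations of the members were 0.065 in WT 1, −0.036 in WT 2 and −0.0076 in WT 3, and −0.051, 0.032 and −0.013 in KO 1, KO 2 and KO 3. The groups therefore overlapped at the level of the whole set. WT 1 also stood apart over all genes, at −13.3 on the first principal component where the other heads lay between −1.06 and 6.20. Without WT 1 the medians were +0.0078 for the large and +0.048 for the small subunit.

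The intervals bound the differences. For 73 of the 77 genes the 95% confidence interval lay within 0.32 log2 units in either direction. The exceptions were Mrpl48, Mrps36, Mrps28 and Mrps21. In 64 of 77 the difference itself was under 0.1. Mean signals over the heads ran from 7.50 (Mrpl44) and 8.03 (Mrpl47) to 10.99 (Mrpl40) and 11.04 (Mrpl39) in the large subunit, and from 7.79 (Mrps12) and 8.13 (Mrps34) to 10.79 (Mrps15) and 10.91 (Mrps21) in the small. Signals of different probe sets do not rank transcript levels.

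**Figure D4:**
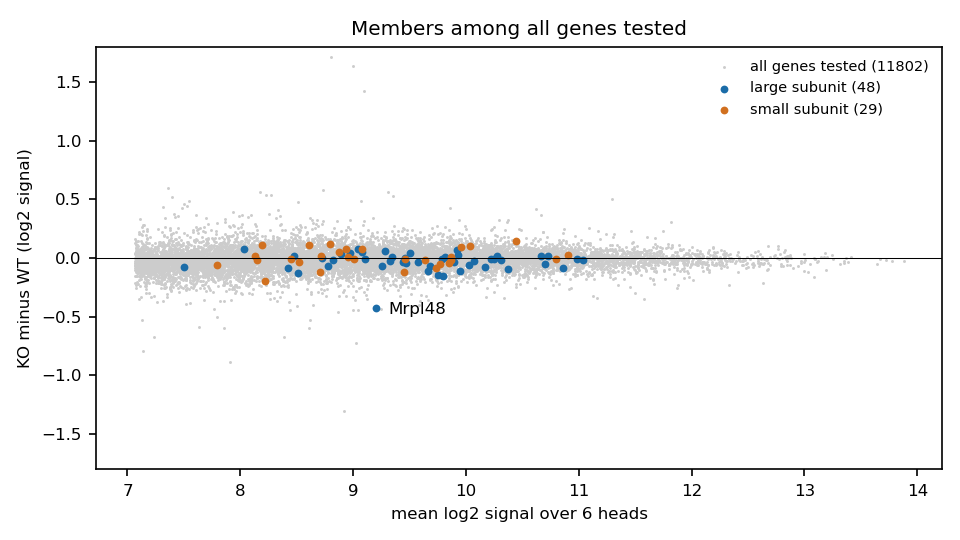
Difference between KO-labelled and WT-labelled heads (y axis, log2 signal) against mean log2 signal (x axis) for all 11802 genes tested (grey), with large subunit genes in blue and small subunit genes in orange. Apart from Mrpl48 at −0.42, the members lie between −0.20 and 0.15. All genes tested run from −1.30 to 1.71, so Mrpl48 too lies within their range.

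A pair of probe sets was available for 8 members and checks the choice of the brighter one. For Mrpl23 (−0.09 and −0.11), Mrps33 (+0.10 and +0.06) and Mrps36 (−0.20 and −0.13) both gave the same sign. For Mrpl47 they disagreed, at +0.07 for the brighter and −0.13 for the dimmer. Mrpl41 (+0.0043 and −0.05), Mrpl51 (+0.02 and −0.01) and Mrps5 (+0.0062 and −0.02) changed sign around zero, and Mrpl27 gave −0.00068 and −0.07. Like the Mrpl48 probe set, 6 of these are numbered among genes of another chromosome, and for Mrpl23, Mrpl27 and Mrps36 a pseudogene of the same name (Mrpl23-ps1, Mrpl27-ps and Mrps36-ps2) lies between the genes named by the adjacent numbers. Mrpl48 was the only member with no probe set numbered on its own chromosome.

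**Figure D5:**
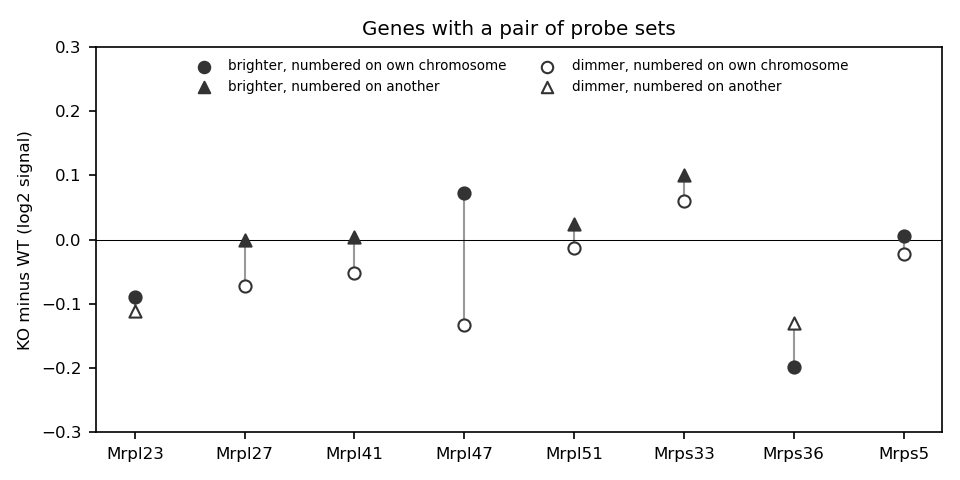
Difference between KO-labelled and WT-labelled heads (y axis, log2 signal) for both probe sets of 8 genes (x axis; filled, brighter; open, dimmer; circles, numbered among genes of the same chromosome; triangles, among genes of another). The pairs lie on 1 side of zero for Mrpl23, Mrpl27, Mrps33 and Mrps36, and Mrpl47 has the widest gap.

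Members on chromosome 2, where Tasp1 lies, were Mrps2 (−0.08), Mrps5 (+0.0062), Mrps26 (+0.11) and Mrpl41 (+0.0043). These 4 differed in both directions and none had an unadjusted p under 0.05.

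Genes that build or serve the same ribosome were followed as well, and none passed an adjusted p of 0.05 in limma. The 4 ribosomal proteins with other symbols differed by −0.05 (Gadd45gip1, whose protein sits in the large subunit), +0.04 (Dap3), −0.04 (Ptcd3) and +0.03 (Chchd1). Of 12 mitochondrial translation factors tested, 6 were lower and 6 higher. At an unadjusted p under 0.05 there were 0, against 7.13% of all genes tested. The initiation factor gene Mtif2 differed by +0.12 and the recycling factor gene Mrrf by −0.09. The release factor relative Mtrf1l differed by +0.10 and the elongation factor relative Gfm2 by +0.07. Of 23 genes for ribosome assembly and rRNA modification, 13 were lower and 10 higher. At an unadjusted p under 0.05 there were 0, against the same 7.13%. Mpv17l2 (−0.13), the methyltransferase gene Mrm1 (−0.11), Ybey (−0.11) and Fastkd2 (+0.10) led this list.

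Of 16 mitochondrial aminoacyl-tRNA synthetase genes, 10 were higher and 6 lower. At an unadjusted p under 0.05 there were 0, against 7.13% of all genes tested. In lists this short, a count of 0 is not read as below that share. The methionine enzyme gene Mars2 differed by +0.13, Fars2 by +0.15, Tars2 by −0.07 and Nars2 by +0.09. Of 13 genes for mitochondrial transcription and DNA maintenance, 7 were lower and 6 higher. An unadjusted p under 0.05 was seen for 7.69% of them, against 7.13% of all genes tested, so the share was near the background. The gene was Gabpa, which encodes the DNA-binding part of GABP. It read 9.87, 9.81 and 9.84 in WT-labelled and 9.94, 10.04 and 9.89 in KO-labelled heads, a difference of +0.12 (limma adjusted p = 0.70). Tefm, a transcription elongation factor gene, differed by −0.11, Nrf1 by −0.05 and the helicase gene Twnk by +0.07.

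The cytosolic ribosome, which translates nuclear messages, was set beside the mitochondrial one. Of 54 tested genes of cytosolic ribosomal proteins 35 were lower and 19 higher, with a median of −0.015. At an unadjusted p under 0.05 there were 2 (3.70%), against 7.13% of all genes tested. No test of a difference between these lists was made.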

How the data were processed

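The authors deposited a table of log2 signals, from 2.73 to 14.4, covering 35556 probe sets on 6 arrays. Per the submitters' processing notes, Affymetrix Expression Console and MAS5 were used. The sources used here do not say how background, scaling and probe summaries were handled. The values were used as deposited.

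Genes were named from the platform annotation, in which 21789 probe sets carry 1 symbol. Of these, the 40% with the lowest mean (below 7.06) were left out, and the brightest remaining probe set was kept per gene, which left 11802 genes. The heads were compared with limma 3.58.1 in R 4.3.3 (lmFit, then eBayes with trend, two-sided p-values, Benjamini-Hochberg over all genes). The procedure was tested on simulated data with independent noise in each head. That noise lacks the differences between single heads seen here, so the test does not show how the procedure does on these heads. The number of arrays limits the precision.

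The members and the gene lists were chosen with earlier results of these data known. Genes named are Mrpl48, the 10 lower and 10 higher members with the smallest p, the dimmest and brightest of each subunit, members with a pair of probe sets, those on chromosome 2, up to 4 genes per related list, and the gene table neighbours of Mrpl48. Others were named after their values were seen. The alternatives were other normalizations, offsets, filters, probe set rules and variance models, a covariate of Xist signal, the replicate block, subunits by position, and each head left out. The restriction to probe sets numbered on the gene's own chromosome, and the omission of Mrpl48, were chosen after seeing the data. Figures were drawn with matplotlib 3.10.9.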

Additional observations from a re-analysis of the deposited data

How the results depend on the processing

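The Mrpl48 difference kept its sign and stayed short of an adjusted p of 0.05 in limma in every alternative that kept its probe set, at −0.45 to −0.38 with all heads and −0.45 to −0.37 with each head left out in turn. With the replicate number as a block, its adjusted p was 0.139. The labels state no pairing by replicate number, so the block served as an alternative only. Deviations from the group mean correlated at −0.169, −0.115 and −0.205 between heads sharing a number. With so few heads, these correlations cannot show whether the heads were paired. With probe sets numbered on another chromosome left out, Mrpl48 had no value and the lower members at an unadjusted p under 0.05 were 2. Members called at an adjusted p of 0.05 were 0 in each alternative.

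The count of lower members at an unadjusted p under 0.05 was 1 to 4 with a head left out, with 1 (Mrpl48) without KO 1. The count of higher members was 0 with median centring, 0 with Xist signal as a covariate, and 0 to 3 with a head left out. The share of all genes past that p was not computed in any alternative. These counts therefore have no background beside them and do not show that the members moved apart from other genes. The large subunit median stayed below zero except without WT 1, where it was +0.0078. The small subunit median was above zero without WT 1 (+0.048), KO 1 (+0.037) or KO 3 (+0.012), with the 60% filter (+0.0086) and by position (+0.011). The large minus small gap changed sign without WT 2 (+0.011) and with the Xist covariate (+0.012). Xist was high in WT 2 alone, so these are close to the same check and not separate ones. By name, these shifts of the medians and the gap were smaller than the SD between single heads, which was not computed by position. That SD is not the error of a difference between groups. The cause of the shifts was not tested. With a head left out, Mrps28 ranged from −0.0032 (without KO 2) to 0.22 (without WT 1). The 60% filter left 65 members, and no second probe set for Mrpl48 was available to test. With 3 heads a group, the median half-width of the 95% intervals was 0.14.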

Other observations

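Mrpl53, the gene with a large subunit symbol that was not among the members, shares its probe set with Ccdc142. That probe set read 8.16, 8.27 and 8.20 in WT-labelled heads and 8.12, 8.20 and 8.07 in KO-labelled heads. Averages of 8.21 ± 0.05 and 8.13 ± 0.07 (SD over 3 heads) resulted, and the groups overlapped.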
